A study of Homo sapiens with 32 samples.

Results

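The members described here are the small nucleolar RNAs (snoRNAs) and small Cajal body RNAs (scaRNAs) that could be counted in a 3′ RNA sequencing experiment on Caco-2 cells. They are the rows of the gene table whose symbol begins with SNORD, SNORA or SCARNA, or is U3, and that held at least 20 counts summed over the 32 libraries. Of 60107 rows in the table, 593 carried such a symbol, 223 of these had at least 1 count and 95 were members. They comprised 37 box C/D RNAs (33 SNORD and 4 U3 rows), 41 box H/ACA RNAs (SNORA) and 17 SCARNA rows. SNORA54 (20 counts), SNORA40B (21) and SNORD100 (23) were just inside the limit, and SNORA37 (18), SNORA74A (18) and SCARNA21B (17) were just outside it. The members were proposed with their values in co-culture against monoculture in view, so that contrast is described and no test of the members is read from it.

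SnoRNAs guide the chemical modification of ribosomal RNA in the nucleolus. Box C/D RNAs direct 2′-O-methylation with fibrillarin, and box H/ACA RNAs direct the change of uridine to pseudouridine with dyskerin. ScaRNAs do the same for spliceosomal RNAs in Cajal bodies, and U3 serves the early cleavages of the ribosomal RNA precursor instead of a modification. In human cells most of them are cut out of the introns of host genes and carry no poly(A) tail, whereas the libraries were primed with oligo-dT and built from the 3′ ends of transcripts.

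Caco-2 is a line of human colon carcinoma cells with features of intestinal epithelium. Cells of the line cl.21 (Caco-2-HIF1A-null, 1 clone), of the line e.v. (Cas9 with an empty vector) and unedited WT cells were each grown in HoxBan co-culture with Faecalibacterium prausnitzii, in HoxBan monoculture on medium without the bacterium, and in 2D dishes. In HoxBan the cells lie upside down on agar medium for 18 h. Each of the 9 groups had 3 libraries, except WT in 2D with 4. Single WT libraries came from co-culture with stool on medium with inulin (YCFAinul) or mucin (YCFAmuc) and from the monocultures on these media. Libraries are called by the number in their label. The labels do not say whether each library had a culture of its own, and a p-value here reflects only how far libraries spread, which may be technical.

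Total counts ran from 4144373 to 5469124 in the 9 co-culture libraries, from 4309745 to 5932966 in the 9 monoculture libraries and from 4583636 to 6686797 in the 10 2D libraries. HIF1A, the gene edited in cl.21, had a median of 159 CPM (counts per 1000000 counts of the library, TMM-normalised) in cl.21 (84.9 to 210), 235 in e.v. (147 to 355) and 168 in WT (129 to 215). Reads from the 3′ end do not show the edit, so this checks no label. All 12 epithelial marker genes averaged at least 1 CPM, against 2 of 5 immune (LYZ, CD68), 2 of 5 fibroblast and 1 of 4 endothelial markers, with KDR at 0 counts. Mitochondrial transcripts took 7.79 to 23.6% of counts in co-culture (median 14.9), 6.36 to 23.3% in monoculture (median 11.3) and 4.49 to 17.1% in 2D (median 6.045). Co-culture libraries 17 (cl.21, 23.6%) and 28 (WT, 20.4%) and monoculture library 25 (e.v., 23.3%) were the only ones above 20%, and the values below that rest on them most are also given without them.

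The members whose values the results turn on are printed here so that their length and box sequences can be seen. The sequences are those of GENCODE release 29 on GRCh38, 5′ to 3′, with U written as T. In the box C/D RNAs the capitals mark the letters TGATGA (box C) and CTGA where it lies in the last 15 bases (box D). In the H/ACA RNAs they mark ACA at 3 bases before the end.
SNORD14E: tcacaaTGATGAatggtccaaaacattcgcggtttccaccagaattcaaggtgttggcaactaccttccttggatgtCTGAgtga
U3, chromosome 3: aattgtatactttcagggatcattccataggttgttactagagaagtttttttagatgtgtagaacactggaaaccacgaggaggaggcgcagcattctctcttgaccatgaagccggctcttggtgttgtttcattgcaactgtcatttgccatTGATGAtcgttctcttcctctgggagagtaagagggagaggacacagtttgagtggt
SNORD3J: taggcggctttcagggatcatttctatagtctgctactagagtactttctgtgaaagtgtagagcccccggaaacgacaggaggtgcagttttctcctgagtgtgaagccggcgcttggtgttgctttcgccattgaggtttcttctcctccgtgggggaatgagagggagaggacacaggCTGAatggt
U3, chromosome 7 plus strand: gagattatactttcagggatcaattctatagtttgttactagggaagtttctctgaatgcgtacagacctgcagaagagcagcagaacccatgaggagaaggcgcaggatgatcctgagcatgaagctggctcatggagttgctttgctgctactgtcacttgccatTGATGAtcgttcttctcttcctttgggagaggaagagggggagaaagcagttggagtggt
SNORD89: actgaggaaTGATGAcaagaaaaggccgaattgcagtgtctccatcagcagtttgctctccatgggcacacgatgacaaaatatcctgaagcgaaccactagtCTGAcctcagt
SNORA12: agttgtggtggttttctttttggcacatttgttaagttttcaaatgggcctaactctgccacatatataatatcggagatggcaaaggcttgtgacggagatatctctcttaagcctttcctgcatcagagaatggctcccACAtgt
SNORA23: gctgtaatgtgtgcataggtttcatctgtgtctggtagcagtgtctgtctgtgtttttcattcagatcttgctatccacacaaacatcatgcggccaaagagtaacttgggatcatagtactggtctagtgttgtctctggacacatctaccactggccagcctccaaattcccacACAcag
SNORA19: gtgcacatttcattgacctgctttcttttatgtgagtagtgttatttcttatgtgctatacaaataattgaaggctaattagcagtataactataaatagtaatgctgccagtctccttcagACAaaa
SCARNA22: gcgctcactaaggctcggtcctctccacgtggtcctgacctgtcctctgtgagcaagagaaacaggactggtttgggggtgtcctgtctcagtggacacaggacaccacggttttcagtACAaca

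TGATGA, searched on the annotated strand, was in 29 of the 37 box C/D members (78.4%) and in 69.9% of the 322 other box C/D rows of the annotation. CTGA in the last 15 bases was in 33 of these members (89.2%), against 82.9% of the other rows. ACA at 3 bases from the end was in 33 of the 41 H/ACA members (80.5%), against 62.4% of the 170 other rows. A stretch of 10 bases with at least 7 A was in 32 of the 95 members (33.7%) and in 25.7% of the 498 other rows, and among the 17 SCARNA members it was in 9 (52.9%). A run of at least 6 A was in 5 members (5.3%) and in 3.6% of other rows. The median length was 89 bases for box C/D, 134 for H/ACA and 139 for SCARNA members.

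In the annotation 90 of the 95 members lay inside another gene on the same strand. SNORD13, SNORA11F, SNORD3J and the U3 rows on chromosome 3 and on the plus strand of chromosome 7 did not. SNORD14E (chr11:123058077-123058161, minus strand) lay in an intron of HSPA8, which encodes a constitutive heat shock protein. SNORA12 (chr10:100237156-100237302, minus) lay in an intron of CWF19L1, SNORA23 (chr11:9428773-9428954, plus) in IPO7, SNORA19 (chr10:119060011-119060138, minus) in EIF3A and SCARNA22 (chr4:1974636-1974760, plus) in NSD2. The U3 row on chromosome 3 was at chr3:45255409-45255620 (minus), SNORD3J at chr10:43417249-43417438 (minus) and the other U3 row printed above at chr7:25264656-25264882 (plus). In all 13 members overlapped an exon of another gene on the same strand, among them SNORD89 (chr2:101272936-101273049, minus) in RNF149, SNORA31 in TPT1 and SNORD8 in CHD8. Reads of a member and of a host exon that overlaps it cannot be told apart in these counts. On the opposite strand 3 members overlapped an exon of another gene, among them SNORD13 (TTI2) and SCARNA13 (GLRX5). Whether strand was heeded in counting is not known, so reads of these genes may be counted in these members.

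Few members held most of the counts. The 95 members held 60145 counts in all, 0.0162 to 0.0373% of a library in co-culture, 0.0218 to 0.0493% in monoculture and 0.0346 to 0.0637% in 2D. SCARNA22, an H/ACA type RNA in the myeloma-associated gene NSD2, took 30.8% of the member counts (18552). SNORD13, which guides an acetylation of the small subunit rRNA, took 14.6%, SNORA79B 9.1%, SCARNA9 8.44% and SNORA12 4.89%. Together these 5 took 67.9%, while 52 members held fewer than 100 counts. These are shares of counts and not levels per length.

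The filter on low counts passed 37 members (12 box C/D, 13 H/ACA, 12 SCARNA), each with at least 144 counts, and the other 58, with 20 to 149 counts, were not tested. A member could pass through the group in which it was high, so the numbers below describe the members that passed and not all 95. Of the 58 untested members, the mean level was lower in monoculture than in 2D in 44 and higher in 14. In co-culture it was lower than in monoculture in 40 and higher in 18.

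The summed level of the members differed by culture and by class. All 95 together had a median of 233 CPM in co-culture (177 to 411), 396 CPM in monoculture (216 to 563) and 456 CPM in 2D (291 to 614). H/ACA members summed to a median of 49.3 CPM in co-culture (35.9 to 81.1), 79.6 in monoculture (54.9 to 118) and 116 in 2D (70.4 to 177). SCARNA members had a median of 100 CPM in co-culture (54.5 to 217), 202 in monoculture (118 to 311) and 222 in 2D (119 to 319). Box C/D members did not follow this order, with 83.0 CPM in co-culture (66.3 to 121), 77.3 in monoculture (43.0 to 134) and 115 in 2D (96.4 to 152). The ranges of neighbouring cultures overlapped in every class. Much of these sums lay in few members. SCARNA22 alone had a median of 39.0 CPM in co-culture, 136 in monoculture and 147 in 2D. For SNORD13 it was 15.6, 44.2 and 78.2 CPM in the same order. Without SCARNA22 the members summed to a median of 199 CPM in co-culture (150 to 294), 251 in monoculture (136 to 397) and 312 in 2D (217 to 432). The highest SCARNA sums of the co-culture libraries were in libraries 17 (217 CPM) and 28 (206 CPM). Without the 3 libraries above 20% mitochondrial counts, SCARNA sums ran from 54.5 to 125 CPM in co-culture (median 79.9) and from 118 to 308 CPM in monoculture (median 198), and all members from 177 to 256 CPM in co-culture (median 227) and from 216 to 454 CPM in monoculture (median 376). In bulk libraries fewer cells with an RNA and less of it per cell cannot be told apart.

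**Figure D1:**
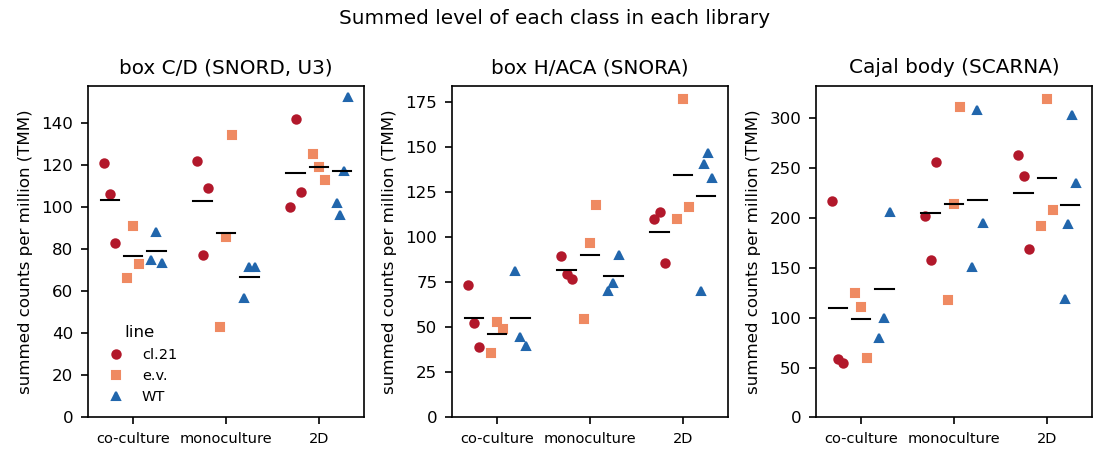
Summed CPM (TMM-normalised) of the members of each class in every library, with points by line (cl.21, e.v., WT), bars at the line mean, and co-culture, monoculture and 2D from left to right. H/ACA sums had medians of 49.3, 79.6 and 116 CPM in this order, and the ranges of neighbouring cultures overlapped in each class.

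The comparison of monoculture with 2D asks what the HoxBan setting does without the bacterium on its usual medium, and it was not used to choose the members. It leaves out the single monocultures on inulin and mucin medium, whose values are given further below. Of the 37 members that passed the filter, 11 fell and 1 rose in monoculture (edgeR's quasi-likelihood test, mean of the 3 lines, Benjamini-Hochberg adjusted p under 0.05). Of all 12849 genes tested, 23.3% were called lower and 21.4% higher, 44.6% in all. The count of lower members is thus near the background, while the members' median change was -0.54 on the log2 scale, against -0.01 over all genes. A total of 29 of the 37 fitted changes were negative. Members that passed the filter through 2D alone enter this median and these counts, which describe only the members that passed. In fits chosen after seeing the data, 18 of 37 members were called lower and 0 higher with the mitochondrial share as a covariate, where 50.5% of all genes were called in either direction, and 14 of 40 lower and 0 higher without the 3 libraries above 20%, where 45.3% were called in either direction. The H/ACA members SNORA19, SNORA38B, SNORA23 and SNORA49 fell most.

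SNORA19, which guides pseudouridylation of ribosomal RNA, had the largest change of the tested members. It had 0.322, 0.231 and 1.88 CPM in cl.21, 0.404, 0.0 and 0.708 in e.v. and 0.182, 1.18 and 0.204 in WT monoculture. In 2D it had 11.9, 4.17 and 4.41 CPM in cl.21, 5.26, 11.3 and 7.35 in e.v. and 5.14, 5.21, 16.2 and 4.61 in WT. Every monoculture library was below every 2D library. The log2 change was -3.78 (SE 0.45, adjusted p = 1.92e-07 by edgeR's quasi-likelihood test), and it ran between -4.36 and -3.01 in the 3 lines. In co-culture SNORA19 was at 0 to 1.07 CPM with a median of 0.204.

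SNORA23, another H/ACA guide, had 2.41, 2.08 and 2.63 CPM in cl.21, 1.41, 1.85 and 2.12 in e.v. and 1.27, 0.942 and 1.22 in WT monoculture. The 2D libraries had 6.09, 7.3 and 4.11 CPM in cl.21, 7.07, 11.8 and 7.18 in e.v. and 4.03, 8.05, 12.0 and 10.4 in WT. Here too no monoculture library reached a 2D library, and the log2 change was -2.15 (SE 0.25, adjusted p = 1.51e-07, edgeR). SNORA19 and SNORA23 were the only 2 of the 37 whose 9 monoculture libraries did not overlap the 10 2D libraries, which was also so, in the lower direction, for 5.12% of all genes tested.

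SNORA38B had 0 to 0.944 CPM in monoculture (median 0.202), against 0.304 to 4.01 in 2D (median 2.13), a log2 change of -2.55 (SE 0.48, adjusted p = 0.000116, edgeR). SNORA49 had 0 to 1.29 CPM in monoculture (median 0.235), against 0.961 to 3.05 in 2D (median 2.2), a change of -2.13 (SE 0.39, adjusted p = 6.99e-05, edgeR). Both rest on few counts, 15 and 21 over the 9 monoculture libraries, against 126 and 124 over the 10 2D libraries. Like SNORA19 (25 counts in monoculture, 453 in 2D), they passed the filter on low counts through 2D, the side where they were high. The tests of these members are therefore not independent of the filter. SNORA19, SNORA23, SNORA38B and SNORA49 passed the test in each of the 3 lines taken alone. Within single lines 5 members were called lower in cl.21, 6 in e.v. and 7 in WT and none higher, where 10.0%, 11.3% and 8.59% of all genes were called lower.

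Of the abundant members, SNORD13 had 17.8 to 75.9 CPM in monoculture (median 44.2), against 68.5 to 102 in 2D (median 78.2). Its log2 change was -0.77 (SE 0.21, adjusted p = 0.00342, edgeR), and monoculture libraries 4 (75.9 CPM) and 25 (71.5 CPM) reached into the 2D range. SNORD46, a guide of large subunit rRNA methylation, had 1.82 to 6.43 CPM in monoculture (median 3.82), against 4.42 to 13.8 in 2D (median 8.26), a change of -1.10 (adjusted p = 0.000166, edgeR). SCARNA18 had 4.44 to 17.7 CPM in monoculture (median 11.2) and 11.4 to 37.2 in 2D (median 21.4), and SCARNA13, a guide RNA for spliceosomal RNAs, had 2.08 to 10.3 (median 4.72) and 7.15 to 21.0 (median 11.5). Both fell by 1.07 on the log2 scale (adjusted p = 0.000582 and 0.00266, edgeR). SNORA33 had 1.82 to 5.65 CPM in monoculture, against 4.87 to 8.84 in 2D (adjusted p = 0.00655, edgeR). SCARNA8 (-0.98, adjusted p = 0.0435, edgeR) and SCARNA1 (-0.87, adjusted p = 0.0447, edgeR) lay close to the threshold. The call of SCARNA8 was lost without library 2, 4, 5, 7, 11, 16, 25, 26, 29 or 32, with a change of -0.74 (adjusted p = 0.146, edgeR) at the least, without library 2. That of SCARNA1 was lost without library 1, 7, 11, 16, 18, 19, 23, 24, 25, 26, 29, 31 or 32, with the highest adjusted p, 0.0936 (edgeR), without library 1 (log2 -0.77).

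SNORD89 was the member that rose. It had 15.8, 11.8 and 17.6 CPM in cl.21, 10.1, 12.5 and 35.1 in e.v. and 7.63, 10.4 and 13.6 in WT monoculture. In 2D it had 7.46, 9.78 and 6.39 CPM in cl.21, 10.7, 17.9 and 10.0 in e.v. and 3.85, 6.31, 10.9 and 10.8 in WT. The log2 change was 0.63 (SE 0.23, adjusted p = 0.0249, edgeR), and the groups overlapped. Without library 25, the e.v. monoculture library with 35.1 CPM and 23.3% mitochondrial counts, it was 0.37 (adjusted p = 0.129, edgeR) and the call was lost. It was also lost without library 29 (0.56, adjusted p = 0.0604, edgeR) or 32 (0.58, adjusted p = 0.0522, edgeR), and with the mitochondrial share as a covariate (0.37, adjusted p = 0.125, edgeR). SNORD89 lies in an exon of RNF149, which averaged 63.2 CPM in monoculture and 60.9 CPM in 2D.

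**Figure D2:**
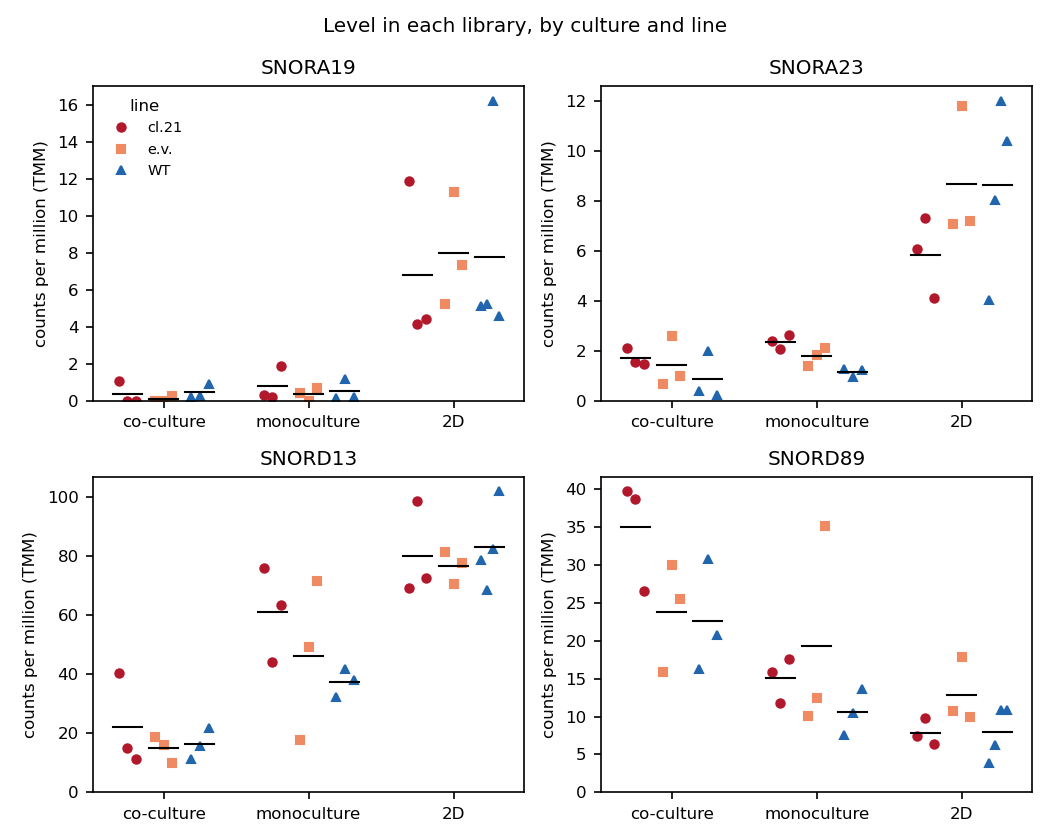
CPM (TMM-normalised) of SNORA19, SNORA23, SNORD13 and SNORD89 in every library, with points by line, bars at the line mean, and co-culture, monoculture and 2D from left to right. SNORA19 reached 1.88 CPM at most in monoculture and 4.17 at least in 2D, and SNORD89 had its highest monoculture value, 35.1 CPM, in e.v. library 25.

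SNORD14E, the U3 row on chromosome 3, SNORD3J, SNORA12, SCARNA22 and SCARNA9 did not pass the test in this comparison. In the alternative fits listed at the end, SCARNA9 passed in 4 of 36 and SNORA12 in 2 of 36. SNORD14E had 0 to 0.908 CPM in monoculture, against 0.13 to 0.552 in 2D (log2 -0.07, SE 0.59). The U3 row had 0 to 1.77 CPM in monoculture, against 0.55 to 2.88 in 2D (log2 -0.67, SE 0.39), and it passed only without WT monoculture library 29 (-1.25, adjusted p = 0.0364, edgeR). The groups overlapped for both. SNORA12 had 13.7 to 27.6 CPM in monoculture, against 19.1 to 39.8 in 2D (log2 -0.35, SE 0.29). SCARNA22 had 80.4 to 185 CPM in monoculture, against 74.6 to 182 in 2D (log2 -0.06). SCARNA9, a methylation guide for the spliceosomal U2 RNA, spread widely in both cultures, with 12.3 to 88.5 CPM in monoculture (median 29.7) and 7.0 to 48.7 in 2D (median 18.2). SNORA79B had 16.7 to 50.5 CPM in monoculture (median 32.2), against 17.4 to 63.4 in 2D (median 30.6), while its host CCNB1IP1 rose (log2 0.80, adjusted p = 1.21e-05, edgeR). No interaction of line with this change passed edgeR's test for any member or any of the 12849 genes. At an unadjusted p under 0.05 it was 0 members, with 180 genes (cl.21 and e.v.) and 439 genes (e.v. and WT).

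The host genes did not move with their members throughout. Of the 11 members that fell, 10 lay in a host gene, and of these hosts 2 fell, 5 rose and 3 did not pass the test in the same fit. SNORA19 and its host EIF3A both fell, EIF3A with 434 CPM in monoculture, against 570 in 2D (log2 -0.42, adjusted p = 0.0029, edgeR). IPO7, the host of SNORA23, rose with 562 CPM in monoculture, against 446 in 2D (log2 0.35, adjusted p = 0.00435, edgeR). SCARNA13 fell while SNHG10 rose (log2 0.93, adjusted p = 0.000864, edgeR), and SNORA33 fell while RPS12, a ribosomal protein gene, rose (log2 0.49, adjusted p = 0.000507, edgeR). The difference between a member and its host was not tested.

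**Figure D3:**
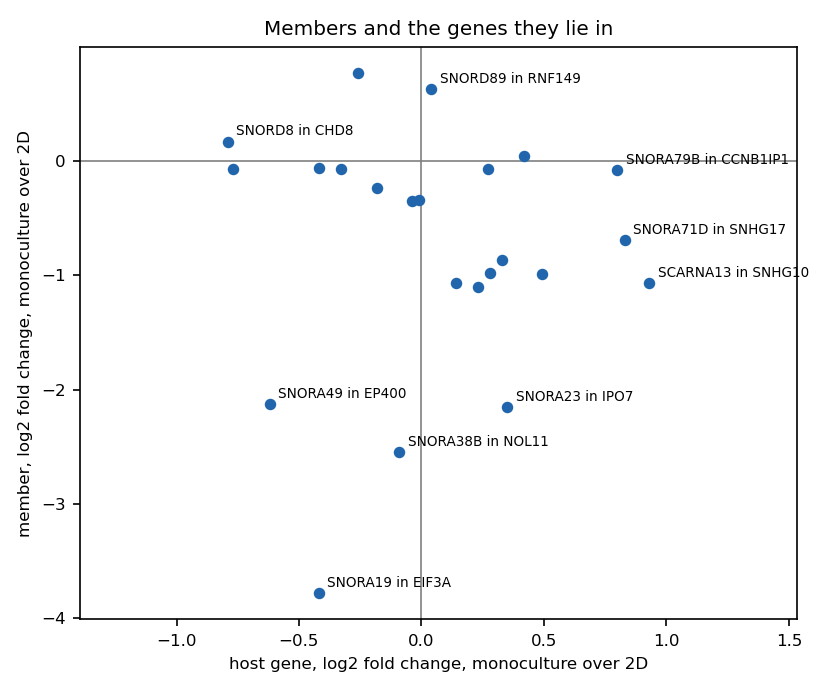
Log2 fold change of monoculture over 2D (mean of 3 lines) for the host gene on the x axis and for the member on the y axis, with 1 point for each tested member named in the text and its host (SNORD17 lies in 2 genes) and names at the outer points. SNORA23 lies at -2.15 with its host IPO7 at 0.35, and SCARNA13 at -1.07 with SNHG10 at 0.93.

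Genes of the pathway, from lists of known roles, were read in the same fit, in which 21.4% of all genes rose and 23.3% fell. Of the 25 tested genes on a list of snoRNA hosts, 21 rose and 1 fell in monoculture, with a median log2 change of 0.86. The list held the genes whose symbol begins with SNHG, and GAS5, ZFAS1, EPB41L4A-AS1, CCDC26 and TAF1D, which encodes a protein. SNHG1 had 214 ± 74 CPM in monoculture and 62.9 ± 9.6 CPM in 2D (SD, n = 9 and 10, log2 1.75, adjusted p = 7.73e-10, edgeR). EPB41L4A-AS1, the host of SNORA13, had 245 ± 66 CPM in monoculture and 75.0 ± 26 CPM in 2D (adjusted p = 1.34e-09, edgeR). SNHG14, which carries the imprinted SNORD115 and SNORD116 clusters, fell (log2 -0.74, adjusted p = 0.000111, edgeR). Of the 20 proteins of the U3 processome 10 rose and 0 fell, with DDX10 at log2 0.75 (adjusted p = 6.34e-05, edgeR) and a median of 0.26. Of the 4 core proteins of box C/D particles NOP58 (log2 0.48) and SNU13 (log2 0.50) rose, while FBL (0.09) and NOP56 (-0.30) did not pass. Of the 4 core proteins of H/ACA particles NOP10 rose (log2 0.34, adjusted p = 0.0164, edgeR), and DKC1, which encodes dyskerin, did not pass (log2 0.46, adjusted p = 0.0886, edgeR).

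Of 11 assembly factors 5 rose and 1 fell, NUFIP1 with log2 0.74 (adjusted p = 5.56e-07, edgeR) and the cap methylase TGS1 with -0.31. Of 6 Cajal body proteins GEMIN4 (log2 -1.12, adjusted p = 1.43e-07, edgeR) and COIL, the coilin gene (-0.37), fell and SMN1 rose (0.53). Of 13 genes of 3′ end trimming and decay 2 rose and 4 fell, a share near the 44.6% of all genes called in either direction. Among those that fell was the poly(A) polymerase TENT4A, with 11.8 ± 2.9 CPM in monoculture and 22.0 ± 3.4 CPM in 2D (SD, n = 9 and 10, log2 -0.92, adjusted p = 0.000109, edgeR). Of 14 other small RNA rows 5 rose and 5 fell. RNU4ATAC, the U4 RNA of the minor spliceosome, was among those that did not pass, with 747 ± 270 CPM in monoculture and 785 ± 130 CPM in 2D.

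The line with the HIF1A edit is 1 clone, so a difference from e.v. may belong to the edit or to the clone. With this limit, cl.21 against e.v. was read for the edit, and e.v. against WT for the Cas9 and vector treatment. In neither did any of the 37 members pass the test (edgeR's quasi-likelihood test, mean of the 3 cultures), where 8.76% and 14.6% of all genes did, and DESeq2 called 0 as well. In each, 1 member had an unadjusted p under 0.05, where 2762 (cl.21 against e.v.) and 3632 (e.v. against WT) of the 12849 genes did. SCARNA18 had a log2 difference of -0.58 in cl.21 against e.v. (SE 0.26, adjusted p = 0.178, edgeR), and SNORD89 one of 0.54 in e.v. against WT (SE 0.22, adjusted p = 0.103, edgeR). Both passed when e.v. monoculture library 11 was left out, with adjusted p = 0.0458 and 0.0339 (edgeR). The fitted differences of the 37 members ran between -0.79 (SNORA38B) and 1.09 (SNORA79) in cl.21 against e.v., and between -0.85 (SNORA19) and 0.76 (SCARNA14) in e.v. against WT. The median standard error was 0.38 (cl.21 against e.v.) and 0.37 (e.v. against WT) on the log2 scale, and differences of several such errors could go undetected at this depth. Of the lists of pathway genes, 1 assembly factor, 1 gene of trimming and decay and 1 host gene rose in cl.21 against e.v., 1 other small RNA fell, and no gene of the other 4 lists passed.

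Values in co-culture against monoculture, the contrast the members were chosen on, are given as a description. The test called 8 of the 37 higher and 7 lower in co-culture, beside 0.817% and 1.18% of all genes, and in cl.21, e.v. and WT taken alone edgeR called no gene (908, 791 and 555 genes had an unadjusted p under 0.05). The members were chosen on this contrast, and nothing is read from their count. The members' median change was -0.84 on the log2 scale, against -0.02 over all genes. Among the higher ones were SNORD14E (log2 3.68), U3 on chromosome 3 (2.71), SNORD3J (2.70), SNORA71D (1.73), SNORD17 (1.70), SNORD8 (1.40), SNORA31 (1.16) and SNORD89 (0.89). Among the lower ones were SNORA79 (-2.74), SNORA12 (-2.32), SCARNA13 (-2.29), SCARNA20 (-2.20), SCARNA22 (-1.45), SNORD13 (-1.41) and SNORA11F (-1.41). Of the 8 higher members 6 were box C/D RNAs, beside 12 of the 37 tested. SNORD14E, U3 on chromosome 3 and SNORD3J were named when the members were chosen, and nothing is read from this share. The comparisons of co-culture with monoculture and of monoculture with 2D share the monoculture libraries.

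SNORD14E, of the SNORD14 family that guides methylation of the small subunit rRNA, was counted mainly in co-culture. It had 1.6, 5.93 and 5.47 CPM in cl.21 (libraries 17, 21 and 30), 4.14, 4.51 and 4.46 in e.v. and 6.13, 4.28 and 1.39 in WT (libraries 3, 20 and 28). In monoculture it had 0.161, 0.0 and 0.563 CPM in cl.21, 0.0, 0.463 and 0.472 in e.v. and 0.908, 0.0 and 0.204 in WT. These values stand for 159 counts in co-culture and 14 in monoculture. The lowest co-culture libraries, 17 and 28, were the pair above 20% mitochondrial counts and were still above every monoculture library. The log2 fold was 4.02 in cl.21, 3.78 in e.v. and 3.23 in WT, and 4.08 over the lines without the libraries above 20%. HSPA8, its host gene, averaged 419 CPM in co-culture and 287 CPM in monoculture. SNORD14A, a member of the same family in an intron of RPS13, had 19 counts in co-culture and 3 in monoculture.

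The table held 59 rows of the U3 family, of which 26 had at least 1 count and 5 were members. SNORD3A, SNORD3B-1, SNORD3C and SNORD3D were listed at 0 counts in every library and SNORD3B-2 at 10 counts in all. How reads that match several copies were counted is not known, so these values do not show which copy the reads came from. The 5 members were 73.1 to 83.7% identical to each other over their aligned bases. The row on chromosome 3 had 4.53, 12.6 and 8.45 CPM in cl.21, 1.84, 8.07 and 5.45 in e.v. and 4.5, 5.29 and 3.24 in WT co-culture. In monoculture it had 1.77, 1.16 and 0.75 CPM in cl.21, 1.01, 1.39 and 1.42 in e.v. and 0.182, 0.0 and 1.02 in WT. The 9 co-culture libraries lay above the 9 monoculture libraries, if narrowly (1.84 against 1.77 CPM). SNORD14E and this row were the only 2 of the 37 members with such a separation, which 0.0389% of all genes showed. Both were chosen for their values in co-culture, and nothing is read from this share.

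SNORD3J had 0.69 to 5.93 CPM in co-culture (median 3.52), against 0.202 to 1.29 in monoculture (median 0.375), and its groups overlapped. Its log2 fold was 2.62 in cl.21, 2.72 in e.v. and 2.76 in WT. Without the libraries above 20% mitochondrial counts the fold over the lines was 3.07, and that of the row on chromosome 3 was 2.90. The U3 row on the plus strand of chromosome 7 had 52 counts in co-culture, 11 in monoculture and 11 in 2D. The U3 row in an intron of LAMB1 ran the other way, with 10 counts in co-culture, 20 in monoculture and 75 in 2D. The row in TEX14 had 12 counts in co-culture, 13 in monoculture and 1 in 2D. These 3 rows did not pass the filter and were not tested.

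SNORA12 was the member of the 4 that stood lower in co-culture. It had 16.2, 1.81 and 0.746 CPM in cl.21, 4.6, 1.9 and 1.73 in e.v. and 1.02, 1.26 and 9.26 in WT co-culture. In monoculture it had 25.9, 15.7 and 24.4 CPM in cl.21, 13.7, 21.3 and 18.4 in e.v. and 18.7, 27.6 and 18.7 in WT. Only library 17, with 16.2 CPM and 23.6% mitochondrial counts, reached into the monoculture range, and library 28, with 9.26 CPM and 20.4%, was the next. Without the libraries above 20% the log2 fold was -3.64, against -2.32 with all. Its host CWF19L1 averaged 22.2 CPM in co-culture and 18.6 CPM in monoculture.

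**Figure D4:**
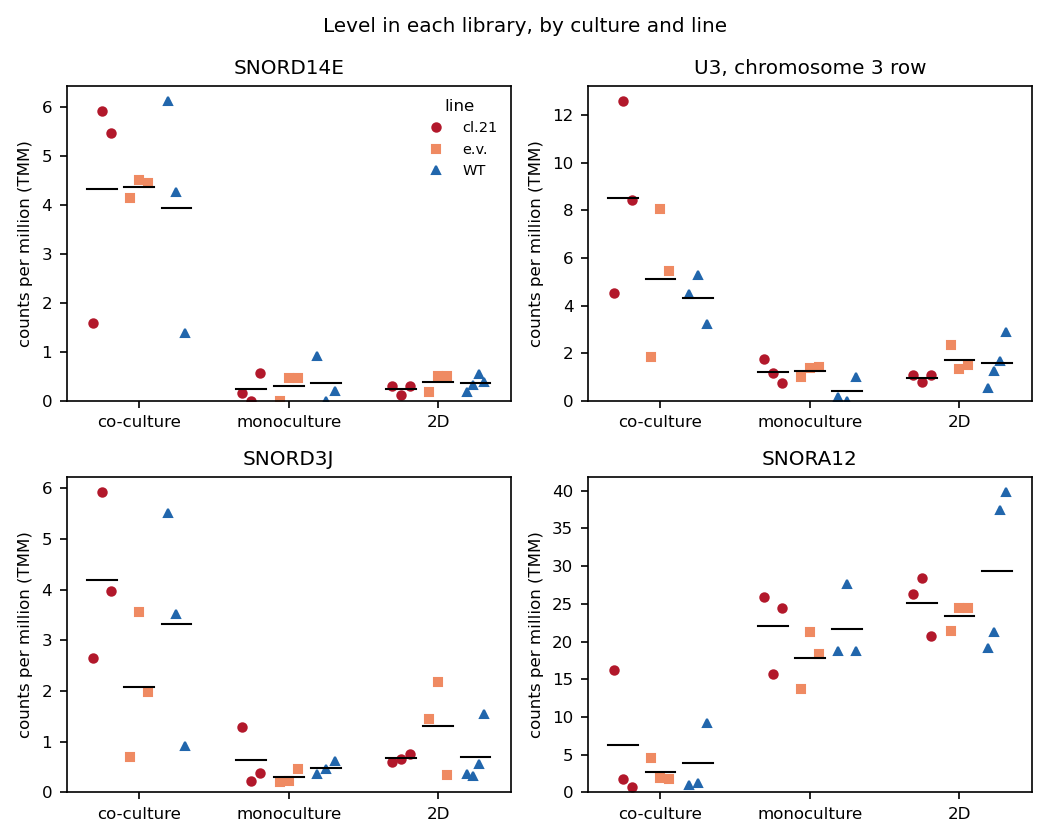
CPM (TMM-normalised) of SNORD14E, the U3 row on chromosome 3, SNORD3J and SNORA12 in every library, with points by line, bars at the line mean, and co-culture, monoculture and 2D from left to right. SNORD14E lay at 1.39 CPM or more in co-culture and at 0.908 or less in monoculture, and SNORA12 had its highest co-culture value, 16.2 CPM, in cl.21 library 17.

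The same 2 libraries, 17 and 28, stood high in other members that were lower in co-culture. SCARNA22 had 117 CPM in library 17 and 93.1 CPM in library 28, against 17.5 to 53.6 in the other co-culture libraries and 80.4 to 185 in monoculture. SNORD13 had 40.5 and 21.8 CPM in libraries 17 and 28 and 10.1 to 18.9 in the other co-culture libraries, against 17.8 to 75.9 in monoculture. SCARNA20 had 4.53 and 2.78 CPM in libraries 17 and 28 and 0 to 1.38 in the other co-culture libraries, against 2.78 to 8.63 in monoculture. Without the libraries above 20% the log2 fold was -2.03 for SCARNA22, -1.59 for SNORD13 and -2.94 for SCARNA20. With the mitochondrial share as a covariate the log2 fold of SNORA12 was -2.63, that of SNORD14E 3.81, that of the U3 row 2.81 and that of SNORD3J 2.78. Co-culture libraries 14 (e.v., 19.6% mitochondrial counts) and 20 (WT, 18.5%) lay just below the 20% limit. SCARNA22 had 50.8 and 25.9 CPM in them, SCARNA20 1.38 and 0.252, and SNORA12 4.6 and 1.26. The part of the mitochondrial share in these values was not tested further. SCARNA13 had 0.248 to 2.93 CPM in co-culture, against 2.08 to 10.3 in monoculture, and SNORA79 had 0 to 2.13 CPM in co-culture, against 0.606 to 5.9 in monoculture.

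The members that stood higher in co-culture besides these were at a few CPM. SNORD17, a guide of large subunit rRNA methylation, had 1.16 to 4.64 CPM in co-culture, against 0.232 to 1.22 in monoculture. SNORA71D had 1.38 to 6.45 CPM in co-culture, against 0.235 to 2.08 in monoculture, while SNHG17, its host, averaged 216 CPM in co-culture and 229 CPM in monoculture. SNORD8, a methylation guide for a spliceosomal RNA, had 1.38 to 6.17 CPM in co-culture, against 0.204 to 2.32 in monoculture. SNORA31, in an exon of TPT1, had 3.22 to 11.9 CPM in co-culture, against 1.01 to 6.11 in monoculture. The groups overlapped for each of these members, for SNORD17 narrowly (1.16 against 1.22 CPM). SNORD89 had 15.9 to 39.7 CPM in co-culture (median 26.6), against 7.63 to 35.1 in monoculture (median 12.5) and 3.85 to 17.9 in 2D (median 9.9). No interaction of line with co-culture passed the test for any member or any gene. An unadjusted p under 0.05 was found for 1 member (cl.21 and e.v.) and 2 members (e.v. and WT), and for 169 and 115 of the 12849 genes in the same order.

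**Figure D5:**
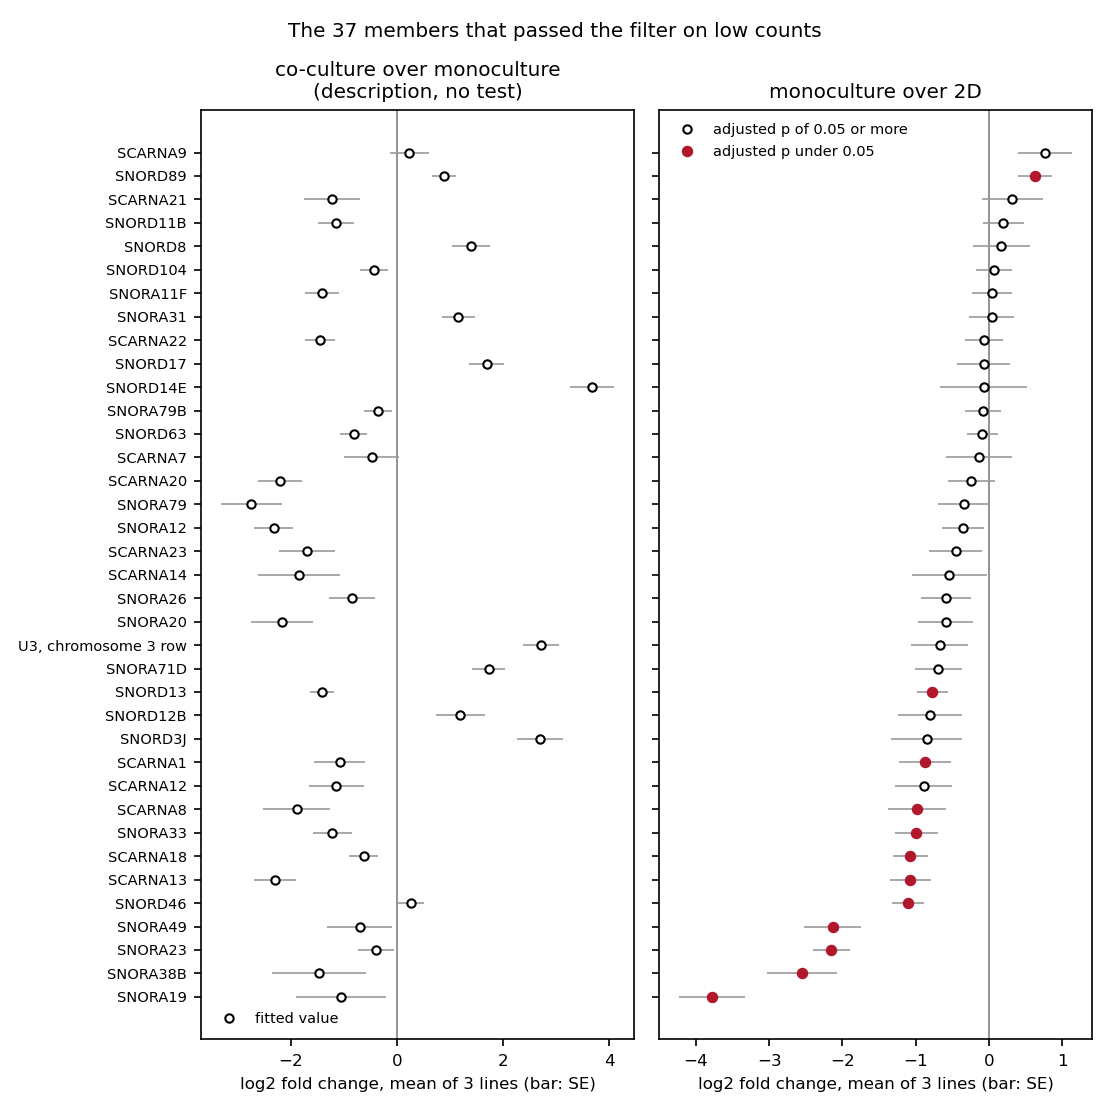
Log2 fold change (mean of 3 lines, bars show the SE) of each of the 37 members that passed the filter, in co-culture over monoculture on the left and in monoculture over 2D on the right. SNORD14E (3.68) stands at the right end of the left panel, and SNORA19 (-3.78) at the left end of the right panel, where filled red points passed the test (adjusted p under 0.05).

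For the genes of the pathway in co-culture the values are again a description. The median log2 change in co-culture against monoculture was 0.19 for the box C/D core, 0.08 for the H/ACA core and 0.15 for assembly. It was 0.19 for the U3 processome and -0.03 for the listed snoRNA host genes, against -0.02 over all genes. NOP58 averaged 491 ± 77 CPM in co-culture and 437 ± 68 CPM in monoculture (SD, n = 9 each). TENT4A averaged 6.97 ± 3.2 CPM in co-culture and 11.8 ± 2.9 CPM in monoculture, and RNU4ATAC 1410 ± 430 and 747 ± 270 CPM in the same order.

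Single WT libraries gave values outside these comparisons, with no replicate and no test. In the following, 95% exact Poisson intervals cover counting error only. SNORD14E had 11 counts, 1.98 CPM (0.989 to 3.55), in co-culture with stool on inulin medium, against 0 counts in the monoculture on that medium (up to 0.712 CPM). On mucin medium it had 7 counts, 1.64 CPM (0.66 to 3.38), with stool, against 0 counts in monoculture (up to 0.83 CPM). The intervals were apart on inulin medium and overlapped on mucin medium. SNORA12 had 6.48 CPM (4.54 to 8.98) with stool on inulin medium, against 21.0 CPM (17.3 to 25.4) in its monoculture, and 12.9 CPM (9.72 to 16.8) with stool on mucin medium, against 19.6 CPM (15.7 to 24.1). SNORA12 was lower with stool on inulin medium beyond counting error, while on mucin medium the intervals overlapped. An overlap of intervals, here and for SNORD14E, does not show that the values were alike, and the difference was not tested. The U3 row on chromosome 3 had 5 counts with stool and 3 in monoculture on inulin medium, and 4 and 1 on mucin medium, so that no difference was detectable. SNORD3J had 4 counts with stool and 4 in monoculture on inulin medium, and 0 and 2 on mucin medium. SNORA23 had 0.72 CPM (0.196 to 1.84) with stool on inulin medium, against 5.02 CPM (3.28 to 7.36) in its monoculture. In the inulin and mucin monocultures SNORA23 had 5.02 and 5.85 CPM, against at most 2.63 in the usual monoculture and at least 4.03 in 2D. SNORA19 had 0.966 and 1.35 CPM, against at most 1.88 and at least 4.17 in the same order. For SNORD13 it was 103 and 71.3 CPM, against at most 75.9 and at least 68.5. For SCARNA13 it was 10.6 and 7.88 CPM, against at most 10.3 and at least 7.15. The part of the medium was not tested. The members summed to 186 CPM with stool and 485 CPM in monoculture on inulin medium, and to 183 and 390 CPM in the same order on mucin medium.

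Over the 28 libraries, the level of SNORD14E was most like that of the U3 row on chromosome 3 (Spearman's rho 0.72), ZCRB1 (0.70), MTRNR2L3 (0.69), PKD1L3 (0.68) and RPS13P2 (0.68). That of SNORA12 was most like SCARNA22 (0.87), SNORD13 (0.87), SCARNA13 (0.86), ZDHHC7 (0.86) and RNF4 (0.85). The libraries share cultures and depth, and these values are a description. SNORD14E, the U3 row and SNORA12 were chosen for their values in co-culture, so nothing is read from these ranks.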

How the data were processed

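The deposited file holds counts per Ensembl gene for 32 libraries, which the authors made from QuantSeq 3′ mRNA reads on GRCh38 (the submitters' notes). Which aligner, counter and annotation were used, and whether strand was heeded, is not given in the sources used here. Reads of genes on opposite strands, or of close copies, may therefore be shared. Samples had been placed on the plates in pseudo-random order. Rows took their names from a table of Ensembl identifiers (40995) and from GENCODE release 29 (15536), and 3576 had no name. No 2 libraries were identical.

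For 28 libraries, edgeR's filter left 12849 genes. TMM factors and a quasi-likelihood model of 9 group means (edgeR, 19 residual degrees of freedom, common variation between libraries 0.201) gave two-sided tests of contrasts averaged over lines or cultures, adjusted by Benjamini-Hochberg over every gene, with a threshold of 0.05. Standard errors follow from fold change and F statistic. CPM used TMM factors over 32 libraries. The members, lists and tests were chosen with earlier results of these data known. Named with values were SNORD14E, SNORD3J, SNORA12 and the U3 rows, each member that passed a test outside the co-culture contrast, and the 10 of highest mean CPM. The other members named in co-culture and for their extreme differences between lines, and RNU4ATAC, NOP58 and TENT4A in co-culture, were picked after their values were seen. Single libraries were not tested, and their 95% exact Poisson intervals cover counting error only, as reads carried no molecular identifiers. Motifs were read from GENCODE transcripts by exact match. Scripts were tested on simulated data.

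Alternatives were upper-quartile or no factors, mitochondrial genes left out, no filter, DESeq2, only the groups compared, and each library left out. Chosen after seeing the data were the mitochondrial share as a covariate and a fit without the 3 libraries above 20%. Analyses ran in R 4.3.3 (edgeR 4.0.16, DESeq2 1.42.0) and Python 3.11.15.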

Additional observations from a re-analysis of the deposited data

Results flagged for a closer look

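In WT cells in 2D, the group with 4 libraries, 26 values were checked for a library far from the others, and 3 had one. Chance flags about 1 in 20 such groups where values are normally distributed, which low counts need not be. A group with counts in only 1 library is always flagged. SNORA19 was at 16.2 CPM in library 12, against 4.61, 5.14 and 5.21 CPM in the others. SNORA33 was at 5.32 CPM in library 5, against 7.88, 7.92 and 8.21 CPM. The U3 row in TEX14 was at 0.183 CPM (1 count) in 1 library and at 0 in the others. In a library without a replicate, SNORD14E was at 1.98 CPM in co-culture with stool on inulin medium, above the exact 95% Poisson limit of the 0 counts in its monoculture (0.712 CPM).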

How the results depend on the processing

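No value of the 20 members followed turned its direction in a way that reversed a call under any alternative. Monoculture against 2D called 12 of 37 members and 10 to 13 when single libraries were left out, and 9 of the 12 were called in every alternative, the exceptions being SNORD89, SCARNA1 and SCARNA8. With no filter on low counts it called 27 (5 higher, 22 lower of 95), where 58 more members were tested and 19.5% of all rows were called. In fits chosen after seeing the data it called 0 higher and 18 lower with the mitochondrial share as a covariate (50.5% of all genes). Without the 3 libraries above 20% it called 0 higher and 14 lower of 40 (45.3% of all genes). Without normalization factors the median of all genes moved by -0.18 and the members called were 0 higher and 13 lower, against 1 and 11 with TMM. Of all genes 46.8% were called in that fit. For co-culture against monoculture, a description with 15 calls, the count was 10 to 20 over single libraries left out. Of all genes 0.336% were called without library 18 and 3.89% without library 17. It was 27 of 95 with no filter (1.6% of all rows) and 8 of 26 with only the groups compared (0.154% of all genes). In fits chosen after seeing the data it was 24 of 37 with the mitochondrial share as a covariate (11% of all genes). Without the 3 libraries above 20% it was 24 of 40 (8.09%). Calls over all genes changed as well, and nothing is read from these counts. Without factors the median of all genes in this contrast moved by -0.15, with 8 members higher and 13 lower, and 8.72% of all genes were called. For cl.21 against e.v. the count of 0 became 2 with no filter (SNORA12 and SCARNA18), where 4.4% of all rows were called. Over single libraries left out it was 0 to 1, with 1 (SCARNA18) without e.v. monoculture library 11, where 9.07% of all genes were called. For e.v. against WT it became 1 with no filter (SNORD89), where 6.73% of all rows were called. Over single libraries left out it was 0 to 1, with 1 (SNORD89) without library 11, where 18.4% of all genes were called. With the covariate it was 1 (SCARNA13, -0.86), where 16.4% of all genes were called. The interactions stayed at 0 to 0. The cause of these changes was not tested. No paired analysis was possible because each library number occurs once and no 2 groups share one. Members of few counts have wide errors, and the 58 members under the filter were not tested.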
